A study of Mus musculus with 1504 samples.

Results

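The cells compared here were general capillary cells of the adult mouse lung that held many or few reads of Cd74, the invariant chain of major histocompatibility complex (MHC) class II. Cells were chosen by measured reads, each cell's reads of a gene being scaled to a total of 1000000 reads (CPM). A general capillary cell had Gpihbp1 of at least 50 CPM, Cd93 of at least 100 CPM and Ednrb under 100 CPM. It also had fewer than 2 of 5 arterial genes (Gja5, Gja4, Bmx, Dkk2, Sema3g) at 20 CPM or more, and Sftpc plus Scgb1a1 under 10000 CPM. Of 1504 cells in the series, 769 came from the endothelial reporter and 478 met these conditions. Cd74-high cells (2000 CPM or more) numbered 160, Cd74-low cells (under 500 CPM) 207, and 111 lay between the thresholds.

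All 769 cells came from C57BL/6 mice of 12 to 15 weeks carrying Cldn5(BAC)eGFP, a transgene that puts green fluorescent protein under control of the claudin 5 gene. No treatment is named, and the series design gives a range of 10 to 19 weeks instead. Cells were sorted by fluorescence into plates and read with SMART-seq2, which copies whole polyadenylated transcripts and adds no molecular identifier. The count table splits the cells into column sets named EC1, EC2 and EC3, and neither their names nor the labels say which animal or sort a set came from. Each set counted as 1 sample, and the 2 classes were compared within a set and then set beside the other two. No test was run across the sets, since the classes were chosen on these values and 3 pairs cannot give a two-sided p under 0.25 in an exact sign-flip permutation test.

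MHC class II molecules are pairs of an alpha and a beta chain that show peptides from the endosome to CD4+ T cells. Cd74 binds the new pair, steers it to the endosome and blocks its groove until proteases remove it. H2-DM then exchanges the last Cd74 fragment for a peptide, and H2-O, which B cells carry, restrains H2-DM. Transcription of these genes depends on the coactivator CIITA, which acts through RFX, CREB and NF-Y factors at a shared promoter module whose downstream element, the Y box, holds the letters ATTGG. B cells, dendritic cells, macrophages and alveolar type 2 cells carry class II, and capillary endothelium can as well.

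Apart from Cd74, the class II genes lie together on chromosome 17 (GRCm38), from H2-Oa at 34092340 to H2-Eb2, which ends at 34341412. Promoter windows, from 250 bases before to 50 bases after a RefSeq start site (GRCm38.p6), are printed for 3 class II genes that were higher in Cd74-high cells and for H2-Eb2 and H2-Ob, which had next to no reads. They are shown because the letters alone did not separate these groups. Capitals mark ATTGG or, on the opposite strand, CCAAT, and the letters GCAAC, which lie in the X box upstream of the Y box, where they stood 10 to 30 bases before ATTGG. The windows lie at chr17:34287774-34288073 (minus strand), chr17:34305617-34305916, chr17:34152941-34153240, chr17:34325425-34325724 and chr17:34238655-34238954 (plus strand), and each reads 5′ to 3′ along its gene.
H2-Aa: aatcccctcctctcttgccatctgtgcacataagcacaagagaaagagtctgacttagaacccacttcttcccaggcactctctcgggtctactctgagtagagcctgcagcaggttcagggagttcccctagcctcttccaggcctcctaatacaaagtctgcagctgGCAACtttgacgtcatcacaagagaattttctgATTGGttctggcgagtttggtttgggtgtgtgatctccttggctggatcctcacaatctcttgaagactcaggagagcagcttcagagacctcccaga
H2-Eb1: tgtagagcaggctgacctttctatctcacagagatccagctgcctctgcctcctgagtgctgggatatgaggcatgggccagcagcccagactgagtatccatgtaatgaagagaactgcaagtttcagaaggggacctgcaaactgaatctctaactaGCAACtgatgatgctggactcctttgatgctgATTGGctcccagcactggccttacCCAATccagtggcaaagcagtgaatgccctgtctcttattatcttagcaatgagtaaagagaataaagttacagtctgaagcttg
H2-DMb1: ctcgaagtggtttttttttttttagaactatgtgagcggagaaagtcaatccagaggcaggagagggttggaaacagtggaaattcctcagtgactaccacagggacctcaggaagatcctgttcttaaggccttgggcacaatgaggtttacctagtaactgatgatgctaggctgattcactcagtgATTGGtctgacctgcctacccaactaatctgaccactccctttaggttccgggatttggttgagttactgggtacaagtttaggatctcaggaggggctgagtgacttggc
H2-Eb2: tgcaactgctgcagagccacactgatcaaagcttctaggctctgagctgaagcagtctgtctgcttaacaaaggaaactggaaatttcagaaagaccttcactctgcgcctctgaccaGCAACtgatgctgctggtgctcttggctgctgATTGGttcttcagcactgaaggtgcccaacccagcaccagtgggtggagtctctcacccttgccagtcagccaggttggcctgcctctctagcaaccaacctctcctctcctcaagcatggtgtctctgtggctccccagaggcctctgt
H2-Ob: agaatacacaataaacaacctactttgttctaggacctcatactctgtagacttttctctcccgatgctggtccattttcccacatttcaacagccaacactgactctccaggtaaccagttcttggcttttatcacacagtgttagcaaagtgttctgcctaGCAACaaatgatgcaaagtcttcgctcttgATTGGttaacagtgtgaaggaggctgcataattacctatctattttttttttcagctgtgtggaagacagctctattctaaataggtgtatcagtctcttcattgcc

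GCAAC and ATTGG stood 28 bases apart in H2-Aa, 27 apart in H2-Eb1 and H2-Eb2, and 25 apart in H2-Ob. H2-DMb1 held ATTGG without GCAAC, and of the 2 H2-DMa windows 1 held ATTGG. On either strand ATTGG was in 37.4% of the 32851 promoter windows of this length, and the spaced pair, searched on the gene's strand and chosen after the sequences had been seen, in 1.035%. The motif GAS (TTCNNNGAA, both strands), in 8.30% of all windows, was in H2-DMb2 alone among the class II windows. The interferon-stimulated core GAAANNGAA, in 8.56% of all windows, was in none of them. These matches describe letters in a window and say nothing of which factor binds there.

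Cd74 itself, on which the cells were selected, ran from no reads to 15766 CPM. Median Cd74 over general capillary cells was 2502 CPM in EC1, 571 CPM in EC2 and 134 CPM in EC3. In EC1 85 of 152 cells were Cd74-high (55.9%, interval 47.7 to 64.0), in EC2 55 of 179 (30.7%, 24.1 to 38.0) and in EC3 20 of 147 (13.6%, 8.51 to 20.2). Cd74-low cells were 29 (19.1%), 85 (47.5%) and 93 (63.3%) in the same order. The sets thus differed in the make-up of the 2 classes, and animal, plate and day cannot be told apart from the set. Within a set, wells of plate rows A to H and I to P held 62.2% and 50.0% Cd74-high cells in EC1, 31.1% and 30.3% in EC2, and 14.7% and 12.5% in EC3. Intervals are exact at 95%, the limit given for a count of 0 is 3 counts of the total, and both cover counting error only, since SMART-seq2 reads are not independent molecules.

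**Figure D1:**
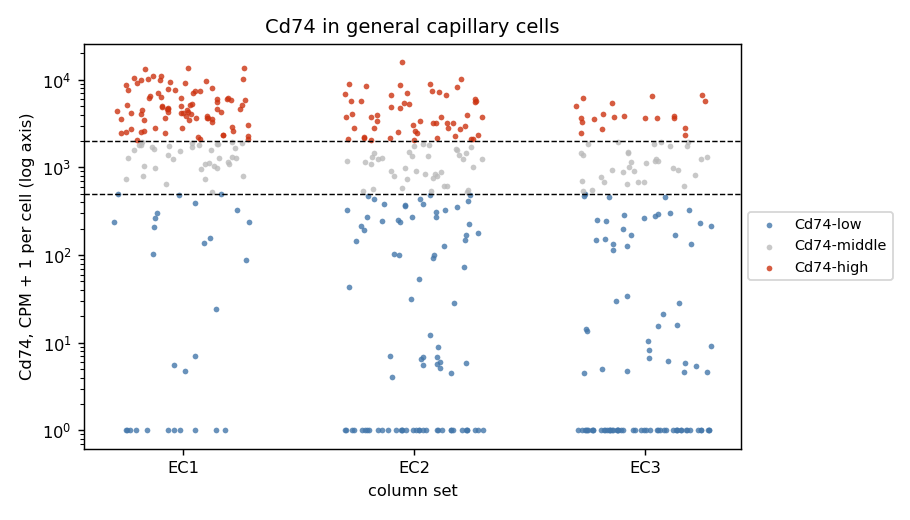
Cd74 in each of the 478 general capillary cells, as CPM + 1 on a log axis, by column set; each point is a cell and the dashed lines mark the thresholds of 500 and 2000 CPM. The points move from mostly above the upper line in EC1 (85 of 152) to mostly under the lower line in EC3 (93 of 147), with cells on both sides of each threshold.

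No gap in the values marked the thresholds. The 3 cells next under 500 CPM held 494, 498 and 499 CPM of Cd74, and the 3 next above held 519, 525 and 536 CPM. Around 2000 CPM the nearest cells held 1944, 1953 and 1972 CPM below and 2029, 2062 and 2076 CPM above. No Cd74 read was found in 11 cells of EC1, 35 of EC2 and 50 of EC3. Over all Cd74-low cells the summed level was 133, 102 and 69.5 CPM in EC1, EC2 and EC3, against 5568, 4629 and 4107 CPM over the Cd74-high cells.

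Both classes carried endothelial markers at similar summed levels, though single markers differed. Of the 9 tested in every set, 1 was higher and 2 were lower in each set by any amount. Kdr, 1 of the 2, was called lower in EC1 and EC2. Eng, the other, was at 3751 and 2802 CPM (Cd74-low, then Cd74-high) in EC1, 2678 and 2361 CPM in EC2, and 3346 and 2237 CPM in EC3. The summed level of 10 pan-endothelial markers, such as Cdh5 (VE-cadherin) and Pecam1 (CD31), was 26194 CPM in Cd74-low and 26655 CPM in Cd74-high cells of EC1, 22300 and 20450 CPM in EC2, and 23787 and 23722 CPM in EC3. The list includes Cldn5, whose gene controls the reporter on which all cells were sorted, so the sum is not independent of the sort. Cldn5 alone was at 11157 and 12708 CPM in EC1, 9170 and 7612 CPM in EC2, and 9430 and 10093 CPM in EC3. After thinning each cell to 50000 reads, Cdh5 had a read in 96.4% to 100% of the cells of each class and set. Median depth was 187000 to 196440 reads per cell in the Cd74-low and 191640 to 202250 in the Cd74-high classes, and median genes per cell were 1803 to 1898 and 1859 to 1871. Gpihbp1, the anchor of lipoprotein lipase on capillaries and a gene of the choosing rule, stood at 2130 and 1772 CPM (Cd74-low, then Cd74-high) in EC1, 1542 and 1732 CPM in EC2, and 1585 and 1439 CPM in EC3.

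The genes that differed in every set were few, and those on the higher side were all class II genes. A gene was called in a set when the higher class had at least 20 CPM and a read in at least 25% of its thinned cells, with a fold of at least 2 between the summed levels. In EC1 185 of 2044 genes tested were called higher in Cd74-high cells (9.05%) and 208 lower (10.2%). EC2 gave 151 of 1921 higher (7.86%) and 137 lower (7.13%), and EC3, with 20 Cd74-high cells, 376 of 2429 higher (15.5%) and 311 lower (12.8%). Median-ratio scaling changed the EC3 counts to 516 higher and 240 lower. Leaving out the cell with the highest value of a gene in each class changed the counts to 346 higher and 162 lower in EC1, 153 and 185 in EC2, and 232 and 549 in EC3. Of 1533 genes tested in all 3 sets, 4 were higher in each (0.261%) and 2 were lower in each (0.13%). Of the 1176 genes called in any set, 84 (7.14%) were called in opposite directions in different sets. The sets therefore shared few calls, and 40 genes were higher and 56 lower in exactly 2 of them.

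**Figure D2:**
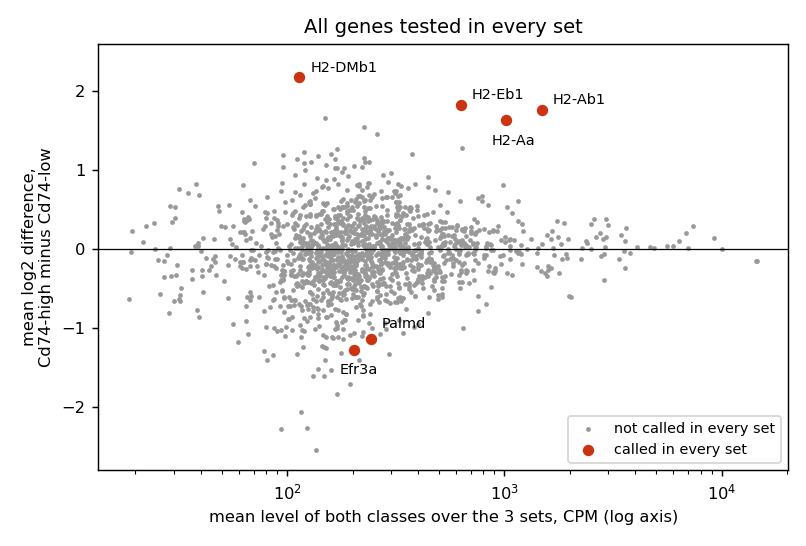
Mean log2 difference over the 3 sets (Cd74-high minus Cd74-low) against the mean level of both classes in CPM, on a log axis, for the 1533 genes tested in every set; red points were called in each set. H2-DMb1, H2-Eb1, H2-Ab1 and H2-Aa lie between 1.63 and 2.18, and Efr3a and Palmd at -1.28 and -1.14, and grey points, called in at most 2 sets, reach below both on the lower side.

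H2-Ab1, the beta chain of the I-A molecule, was at 686 CPM (interval 664 to 708) in Cd74-low and 2825 CPM (2800 to 2850) in Cd74-high cells of EC1. EC2 gave 674 (662 to 687) and 2148 CPM (2122 to 2175), and EC3 gave 642 (630 to 653) and 1924 CPM (1883 to 1967). The folds were 4.12, 3.19 and 3.00. Single cells overlapped widely. Cd74-low cells ran from 0 to 5736, 7466 and 4403 CPM of H2-Ab1 in the 3 sets, with medians of 201, 27.5 and 19.1 CPM. Cd74-high cells ran from 0 to 10362, 6746 and 5591 CPM, with medians of 2312, 1357 and 1849 CPM. A read of H2-Ab1 was found in 65.5%, 57.6% and 53.8% of the thinned Cd74-low cells and in 95.3%, 94.5% and 90.0% of the Cd74-high cells.

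H2-Aa, the I-A alpha chain, was at 636 CPM in Cd74-low and 1811 CPM in Cd74-high cells of EC1, 368 and 1359 CPM in EC2, and 499 and 1422 CPM in EC3. Its folds were 2.85 (2.75 to 2.95), 3.69 (3.58 to 3.80) and 2.85 (2.76 to 2.94). The median Cd74-low cell held 11.3, 0 and 0 CPM of H2-Aa in the 3 sets and the median Cd74-high cell 1641, 886 and 1148 CPM. At least 1 Cd74-high cell in each set had no H2-Aa read, and the highest Cd74-low cells held 5378, 3060 and 3251 CPM.

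H2-Eb1 encodes the beta chain of the I-E molecule, whose alpha chain C57BL/6 mice do not make. Its level was 368 CPM in Cd74-low and 1301 CPM in Cd74-high cells of EC1, 213 and 764 CPM in EC2, and 253 and 894 CPM in EC3. The folds were nearly equal across sets, at 3.53 (3.37 to 3.70), 3.59 (3.45 to 3.74) and 3.54 (3.39 to 3.69). Cell medians for H2-Eb1 were 7.93, 0 and 0 CPM in the Cd74-low and 946, 149 and 426 CPM in the Cd74-high classes. Cells of both classes again ran down to 0, and up to 3271, 2186 and 3574 CPM in Cd74-low against 5402, 4662 and 3465 CPM in Cd74-high cells.

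Of the 3 genes of the peptide editor H2-DM, H2-DMb1 was called higher in every set. Without the cells rich in alveolar type 2 markers this call was lost, while the mean log2 difference of H2-DMb1 stayed at 1.81 or more. This beta chain was at 58.5 and 194 CPM (Cd74-low, then Cd74-high) in EC1, 37.8 and 141 CPM in EC2, and 29.6 and 221 CPM in EC3. Its folds of 3.32 (2.96 to 3.73), 3.72 (3.39 to 4.09) and 7.47 (6.72 to 8.32) gave the highest mean difference of the called genes, 2.18 on the log2 scale. Thinned cells with an H2-DMb1 read made up 20.7%, 10.6% and 11.8% of the Cd74-low and 47.1%, 47.3% and 40.0% of the Cd74-high class. Most thinned cells thus had none. Before thinning, the highest single cells held 542, 786 and 744 CPM in the Cd74-low against 1167, 2001 and 1729 CPM in the Cd74-high class.

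H2-DMa, the alpha chain, was called higher in EC2 (56.1 and 224 CPM) and EC3 (76.8 and 178 CPM). In EC1, at 179 and 238 CPM, the fold of 1.33 was short of the rule. H2-DMb2, a close copy of H2-DMb1, was at 5.65 and 22.0 CPM in EC1, 7.51 and 17.1 CPM in EC2, and 4.31 and 29.5 CPM in EC3, and was called in EC3. Reads of H2-DMb1 and H2-DMb2 may have been split between these copies in counting, so each level is uncertain.

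The H2-O chains, which restrain H2-DM in B cells, were at or near 0. H2-Oa had no read in either class, which allows up to 0.073 CPM over the 207 Cd74-low and 0.092 CPM over the 160 Cd74-high cells. H2-Ob had 247 reads in 3 Cd74-low cells and 2 reads in 1 Cd74-high cell. H2-Eb2, the neighbour of H2-Eb1, had no read in Cd74-low cells and 84 reads in 4 Cd74-high cells. H2-Ob and H2-Eb2 carry the same spaced GCAAC and ATTGG letters as H2-Aa and H2-Eb1 in the windows printed above.

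Of the 9 class II genes other than Cd74, 5 passed the filter on low values in every set, and 4 of these were called higher in every set. H2-DMb1 and H2-DMa passed the filter on shares of cells only through the Cd74-high class. The median log2 difference of the 5 genes, 1.77 beside -0.04 over the 1533 genes tested, is given as a description.

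**Figure D3:**
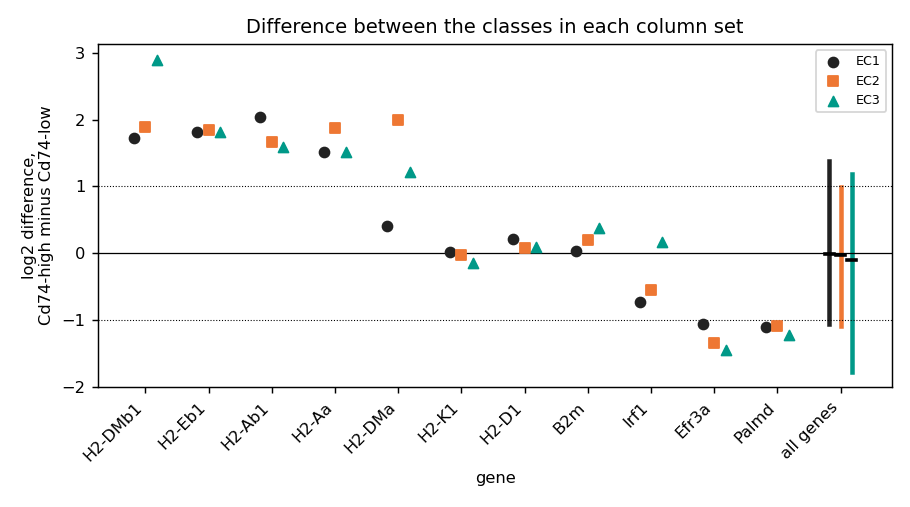
Log2 difference of summed CPM, Cd74-high minus Cd74-low, in each column set for class II genes, MHC class I genes, Irf1 and the called lower genes; at the right, bars run from the 5th to the 95th percentile of the 1533 genes tested in every set, with the median as a black tick, and dotted lines mark a 2-fold difference. H2-DMb1, H2-Eb1, H2-Ab1 and H2-Aa lie above the upper dotted line in all 3 sets, while H2-K1, H2-D1 and B2m lie between -0.15 and 0.38.

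Summed over the 9 genes, class II reads stood at 1934 CPM in Cd74-low and 6396 CPM in Cd74-high cells of EC1, 1357 and 4653 CPM in EC2, and 1517 and 4670 CPM in EC3. The folds were 3.31, 3.43 and 3.08, a mean log2 difference of 1.71 ± 0.079 (SD, n = 3 sets). Cell medians were 944 against 5794 CPM in EC1, 679 against 3975 CPM in EC2 and 715 against 5433 CPM in EC3. Above the Cd74-low median lay 81 of 85 Cd74-high cells in EC1, 49 of 55 in EC2 and 20 of 20 in EC3. The classes nevertheless overlapped in every set, with Cd74-low cells reaching 10854, 7966 and 7223 CPM and Cd74-high cells starting at 467, 0 and 801 CPM.

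**Figure D4:**
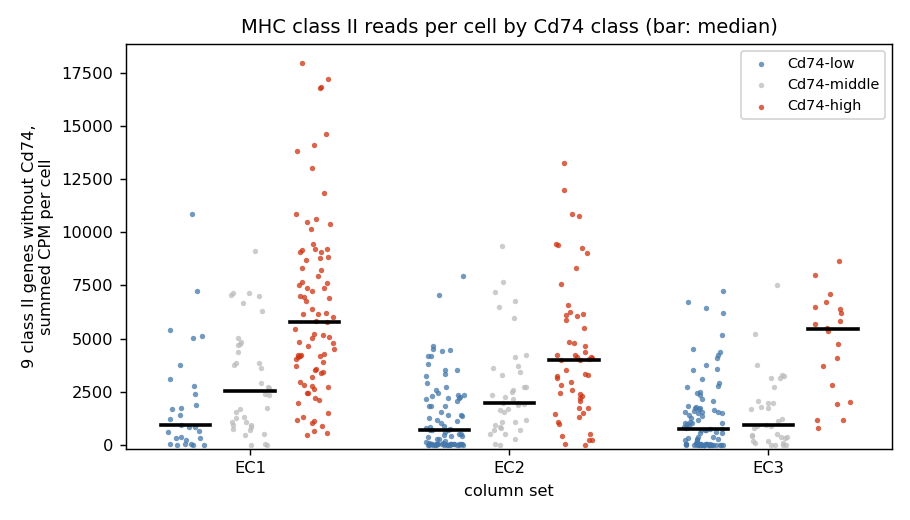
Summed CPM of the 9 class II genes without Cd74 in each cell, by column set and Cd74 class; each point is a cell and each bar a median. The Cd74-high median (3975 to 5794 CPM) lies above the Cd74-low median (679 to 944 CPM) in each set, and the points of the classes overlap.

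Cells between the thresholds did not take the same place in every set. Their summed class II level was 3029 CPM in EC1 and 2617 CPM in EC2, between the 2 classes, but 1464 CPM in EC3, beside 1517 CPM in the Cd74-low cells there. H2-DMb1 was at 61.3 CPM in these cells of EC1, close to the Cd74-low class, and at 137 CPM in EC2 and 116 CPM in EC3.

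The 3 classical chains H2-Aa, H2-Ab1 and H2-Eb1 all had a read in 67.1%, 58.2% and 65.0% of the thinned Cd74-high cells of EC1, EC2 and EC3. In Cd74-low cells this share was 31.0%, 11.8% and 12.9%. None of the 3 had a read in 20.7%, 28.2% and 31.2% of Cd74-low cells, and in 3 of 55 Cd74-high cells of EC2 (5.45%). Among Cd74-high cells this held for 0 of 85 in EC1, which allows a share of up to 3.53%, and 0 of 20 in EC3, which allows up to 15.0%. Cells with no Cd74 read at all were not devoid of the chains. Of these 96 cells, 44 had an H2-Ab1 read after thinning (45.8%, 35.6 to 56.3), 34 an H2-Aa read (35.4%, 25.9 to 45.8) and 21 an H2-Eb1 read (21.9%, 14.1 to 31.5).

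Across all general capillary cells of a set the classical chains stood first beside Cd74, the value that also set the classes. H2-DMb1 had a read in too few cells to be included. Of 1365 genes with a read in at least 25% of the cells of each set, the highest median Spearman's rho with Cd74 belonged to H2-Ab1 (0.60, 0.44 and 0.39 in EC1, EC2 and EC3, over 152, 179 and 147 cells). H2-Aa followed with 0.43, 0.42 and 0.27, and H2-Eb1 with 0.43, 0.39 and 0.32. The 5th to 95th percentiles over all 1365 genes were -0.15 to 0.13 in EC1, -0.12 to 0.13 in EC2 and -0.14 to 0.14 in EC3. Cells of a set are not independent samples and differ in depth, so rho is given as a description. Within a single class rho was lower or uneven. Between Cd74 and H2-Ab1 it was 0.35, 0.01 and 0.27 in the Cd74-low and 0.46, 0.36 and 0.52 in the Cd74-high classes.

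Next in order came Wfdc1, which encodes a secreted protein of the whey acidic family (rho 0.10, 0.26 and 0.26), and Slc6a6, the taurine transporter (0.21, 0.30 and -0.03). Wfdc1 was at 148 and 482 CPM in EC1, 320 and 586 CPM in EC2, and 237 and 488 CPM in EC3, and was called higher in EC1 and EC3. Slc6a6 was called higher in EC1 (206 and 813 CPM) and EC2 (465 and 1332 CPM), and was at 453 and 571 CPM in EC3. Sema3c, Bsg, H2-T23, Stom and Scn7a completed the 10 genes most like Cd74, with median rho of 0.19, 0.17, 0.17, 0.15 and 0.15. Median rho was 0.39 or more for the 3 class II chains and 0.26 or less for every other gene.

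At the other end, the lowest median rho belonged to Plvap, which forms the diaphragms of capillary fenestrae and caveolae (-0.21, -0.16 and -0.25). Its level was 2343 and 1660 CPM (Cd74-low, then Cd74-high) in EC1, 2156 and 1561 CPM in EC2, and 2835 and 1585 CPM in EC3, short of a 2-fold difference in each. Kdr, the main VEGF receptor, named after its values were seen, had the next lowest rho (-0.19, -0.26 and -0.10). It was called lower in Cd74-high cells of EC1 (1217 and 398 CPM) and EC2 (782 and 337 CPM), and was at 596 and 526 CPM in EC3.

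Efr3a and Palmd were the 2 genes called lower in every set. Efr3a, a membrane anchor of the phosphatidylinositol 4-kinase complex (chr15:65787034-65873816, GRCm38), was at 381 and 183 CPM (Cd74-low, then Cd74-high) in EC1, 244 and 96.7 CPM in EC2, and 232 and 84.9 CPM in EC3. Palmd, which encodes palmdelphin (chr3:116918258-116968987), was at 495 and 231 CPM in EC1, 291 and 136 CPM in EC2, and 210 and 89.9 CPM in EC3. Palmd had a read in 62.1%, 47.1% and 41.9% of thinned Cd74-low and 40.0%, 27.3% and 40.0% of Cd74-high cells, and for Efr3a these shares were 37.9%, 35.3% and 26.9% against 25.9%, 25.5% and 25.0%. Median cells held no Efr3a read in either class of any set. When the cell with the highest value was left out of each class and set, neither gene was called in every set.

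Genes that act on class II transcription were too sparse for the rule. None of the 8 listed passed the filter in every set. Ciita, the class II coactivator, had a read in 17.2%, 17.6% and 8.60% of Cd74-low and 22.4%, 21.8% and 5.00% of Cd74-high cells. Its level was 40.8 and 84.5 CPM in EC1, 76.5 and 121 CPM in EC2, and 26.3 and 13.3 CPM in EC3. The direction was thus not the same in the 3 sets, and rho with Cd74 was 0.13, 0.11 and -0.13.

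Antigen processing outside class II gave no call in every set. Of all 1533 genes tested, 0.261% were called higher and 0.13% lower in every set. At these shares the absence of a call does not set a short list apart. The same holds for the class I, interferon and other lists below. Of 14 measured endosomal protease and processing genes, 8 were tested in each set, with a median log2 difference of 0.16. Ctsb, the protease cathepsin B, was called higher in EC1 (131 and 350 CPM) and was at 237 and 296 CPM in EC2 and 432 and 447 CPM in EC3. Ctss, the protease best known for degrading Cd74 in leukocytes, had a read in at most 5.45% of the thinned cells of either class in any set.

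MHC class I and its peptide loading, whose promoters share elements with class II, gave no call in every set. Of 19 measured genes 16 were tested in all sets, and the median log2 difference was 0.20. H2-K1, a classical class I chain named with the next pair after their values were seen, was at 4028 and 4081 CPM in EC1, 3868 and 3783 CPM in EC2, and 3662 and 3307 CPM in EC3. H2-D1 differed by 0.22, 0.08 and 0.10 on the log2 scale, and B2m, the shared light chain, by 0.04, 0.19 and 0.38. H2-T23, which encodes the Qa-1 molecule, was at 179 and 322 CPM in EC1, 210 and 319 CPM in EC2, and 265 and 225 CPM in EC3. Erap1, the peptide-trimming aminopeptidase, was called higher in EC3 (38.7 and 191 CPM), and was at 56.0 and 98.2 CPM in EC1 and 126 and 159 CPM in EC2.

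Interferon gamma is the classical inducer of CIITA and class II. Of the 29 genes of its pathway and targets, 9 were tested in every set and none was called in each, with a median log2 difference of -0.28. Upp1, uridine phosphorylase, was called lower in Cd74-high cells of EC1 (309 and 121 CPM), and was at 37.1 and 68.9 CPM in EC2 and 227 and 115 CPM in EC3. Irgm2, an immunity-related GTPase, was called in no set, at 333 and 183, 288 and 191, and 158 and 154 CPM. Irf1, named after its values were seen, was at 630 and 379 CPM, 424 and 288 CPM, and 324 and 363 CPM. Of the 30 type I interferon genes 12 were tested in every set and none was called in each, with a median of -0.17. Ifit1, an interferon-induced RNA sensor, was called higher in EC3 (54.9 and 268 CPM), while in EC2 it was at 128 CPM in Cd74-low and 1.40 CPM in Cd74-high cells, in too few cells for a call, and in EC1 at 0 and 81.3 CPM. Ifnar2, a receptor chain, was called lower in EC3 (455 and 221 CPM), and was at 303 and 160 CPM in EC1 and 382 and 412 CPM in EC2.

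Costimulatory, adhesion and chemokine genes likewise had no member called in every set, with 2 of 14, 7 of 14 and 2 of 18 measured genes tested in each. Cd40 had a read in 5.00% to 12.9% and Cd274 (PD-L1) in 0% to 16.5% of the thinned cells of either class in any set. Cd200, an inhibitory ligand of myeloid cells, was at 1128 and 712 CPM in EC1, 951 and 1136 CPM in EC2, and 1073 and 1399 CPM in EC3. Podxl, a sialomucin of the luminal surface, was at 1247 and 1799 CPM, 1894 and 2431 CPM, and 1462 and 1676 CPM. Ackr3, a scavenging receptor for Cxcl12, was at 163 and 188 CPM, 293 and 527 CPM, and 279 and 461 CPM. Podxl and Ackr3 were higher in the Cd74-high class of each set by less than 2-fold. Cx3cl1, Cxcl16 and Cd99l2, too sparse for a call, were lower in that class of each set. Cx3cl1 was at 105 and 67.5, 130 and 34.6, and 69.2 and 11.4 CPM. Cxcl16 was at 78.6 and 44.2, 26.2 and 23.0, and 57.4 and 8.80 CPM. Cd99l2 was at 114 and 41.6, 68.9 and 63.4, and 56.5 and 10.2 CPM. In EC2 the fold, Cd74-high over Cd74-low, had an interval of 0.753 to 1.03 for Cxcl16 and 0.838 to 1.01 for Cd99l2. Both intervals include no difference. Cd34, Jam2 and Csf1 changed direction between sets. Of the NF-kB list, Nfkb1 was called lower in EC2 (447 and 128 CPM) and EC3 (166 and 15.9 CPM), and was at 143 and 115 CPM in EC1.

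Markers of position along the vascular tree showed no call in every set. Of 15 measured general capillary genes 13 were tested in all sets, with a median log2 difference of 0.03. It was -0.56 over 4 of 10 aerocyte and 0.15 over 4 of 11 arterial genes. Over 3 of 15 venous and large vessel genes it was -0.78. Lyve1, the 1 of these 3 lower in each set, was called in EC3 (582 and 203 CPM). It was at 448 and 300 CPM in EC1 and 545 and 326 CPM in EC2. Summed venous genes stood at 2821 and 1639, 1805 and 1871, and 2026 and 948 CPM. Summed aerocyte genes stood at 2998 and 2221, 3156 and 2115, and 2420 and 2054 CPM. Aplnr, the apelin receptor, was called higher in EC1 (210 and 501 CPM) and EC3 (214 and 558 CPM), and was at 448 and 401 CPM in EC2. Lpl, lipoprotein lipase, was called lower in EC1 (687 and 226 CPM) and EC3 (424 and 210 CPM), and was at 419 and 331 CPM in EC2. Hey1, a Notch target of arterial cells, was called lower in EC1 (484 and 205 CPM) and EC3 (465 and 104 CPM), and was at 309 and 205 CPM in EC2. Gja4, an arterial connexin, was called higher in EC1 (779 and 1799 CPM), and was at 869 and 857 CPM in EC2 and 1032 and 1620 CPM in EC3. Sox17, an arterial transcription factor, was called higher in EC1 (160 and 321 CPM), and was at 263 and 387 CPM in EC2 and 386 and 449 CPM in EC3. Gja4 belongs to the choosing rule, which capped it only in company of another arterial gene. Of the aerocyte list, Car4 (687 and 289 CPM), Emp2 (398 and 139 CPM) and Prx (163 and 68.0 CPM) were called lower in EC2 and in no other set. In EC1 they were at 498 and 592, 129 and 201, and 67.6 and 96.8 CPM, and in EC3 at 237 and 215, 180 and 135, and 76.9 and 28.1 CPM. Igfbp7 was called lower in EC3 (622 and 210 CPM), and was at 426 and 230 CPM in EC1 and 349 and 211 CPM in EC2.

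Transcription factors of the endothelium had 14 of 19 members tested in every set and none called in each, with a median log2 difference of 0.02. Foxf1, a lung endothelial factor, was at 537 and 436 CPM in EC1, 515 and 355 CPM in EC2, and 563 and 288 CPM in EC3. Neither the coagulation and vascular tone list (9 of 19 tested), the lipid uptake list (4 of 12) nor the immediate early and heat shock list (2 of 17) had a gene called in every set, and no cell cycle gene of 11 was tested in every set. Cd36, the fatty acid transporter, was at 5737 and 7364 CPM, 6919 and 7472 CPM, and 7308 and 9678 CPM.

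Other lung cells that carry class II could lend reads to a well, and their markers were set beside the class II result. B cell markers (7 measured) summed to 8.20 and 16.1 CPM (Cd74-low, then Cd74-high) in EC1, 31.0 and 58.2 CPM in EC2, and 7.27 and 0.476 CPM in EC3. Cd79b had no read in either class of any set, and 3, 4 and 5 of the 7 markers were at 0 in the Cd74-high classes, beside 5, 2 and 3 in the Cd74-low. The 9 shared leukocyte markers summed to 14.6 and 19.8 CPM, 9.89 and 6.54 CPM, and 9.21 and 34.0 CPM, and Ptprc (CD45) was at 0 and 4.66 CPM in EC1, 0.179 and 0 CPM in EC2, and 3.77 and 0 CPM in EC3. The 12 macrophage and monocyte markers summed to 95.7 and 67.7 CPM, 64.8 and 75.7 CPM, and 44.7 and 256 CPM. The median cell held none of these 3 lists in either class of any set. The 9 dendritic cell markers summed to 363 and 292 CPM, 342 and 296 CPM, and 289 and 352 CPM. Of these 9, 5, 5 and 2 were at 0 in the Cd74-low and 4, 4 and 7 in the Cd74-high classes, and Itgax (CD11c) was at 24.4 and 0.472 CPM, 0.060 and 12.6 CPM, and 0.054 and 0 CPM. Without the 75 cells that held 50 CPM or more of the B cell, macrophage and shared leukocyte lists, the mean class II difference was 1.87 on the log2 scale, beside 1.71 with them.

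The summed alveolar type 2 markers were higher in the Cd74-high class of each set, while single markers were not all so. The 10 markers summed to 97.5 and 260 CPM in EC1, 139 and 464 CPM in EC2, and 169 and 233 CPM in EC3, with cell medians of 5.74 and 11.8, 8.82 and 16.8, and 10.2 and 95.1 CPM. Sftpa1, a surfactant protein gene, was higher in the Cd74-high class of each set, at 0 and 5.25 CPM, 1.07 and 70.6 CPM, and 2.48 and 88.7 CPM, with a read in 8.24%, 12.7% and 10.0% of its thinned cells. Lamp3 was at 0 in both classes of EC1 and EC3. Sftpb was at 0.547 and 33.5 CPM in EC1, 6.26 and 18.2 CPM in EC2, and 16.8 and 0.713 CPM in EC3. Thinned cells with at least 2 of the markers made up 6.90% and 16.5% in EC1, 16.5% and 18.2% in EC2, and 16.1% and 20.0% in EC3. The highest single Cd74-high cell of EC2 held 10429 CPM of the list. Sftpc, the surfactant gene that the choosing rule capped, was called higher in EC1 (60.5 and 173 CPM) and EC2 (59.1 and 259 CPM), and was at 107 and 69.2 CPM in EC3. Without the 105 cells holding 100 CPM or more of this list, H2-Ab1, H2-Aa and H2-Eb1 were called higher in every set, H2-DMb1 was not, and the mean class II difference was 1.51. The smallest Cd74-high class then held 10 cells, the fewest allowed for a call, and the mean H2-DMb1 difference was still 1.81 or more. What part reads of this list had in the remaining class II difference was not tested. Of the airway list, Scgb1a1 was at 12.0 and 117 CPM in EC1, 165 and 62.6 CPM in EC2, and 193 and 159 CPM in EC3.

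**Figure D5:**
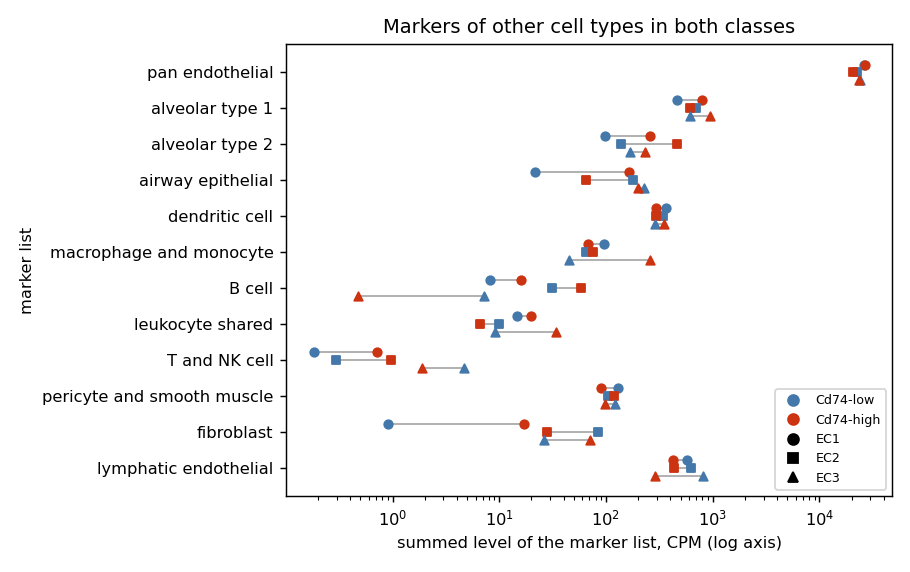
Summed CPM (log axis) of 12 marker lists in Cd74-low (blue) and Cd74-high (red) cells, with 1 symbol for each column set and a grey line joining the classes of a set. Pan-endothelial markers lie between 20450 and 26655 CPM in both classes, alveolar type 2 markers are to the right in Cd74-high cells of each set (233 to 464 CPM), and the leukocyte lists keep no one order.

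Endothelial cells outside the general capillary rule gave a measure of how Cd74 was spread. They were grouped by Ednrb, or by arterial genes with Ednrb under 100 CPM, with no bar on Gpihbp1 or Cd93. No cap on Sftpc plus Scgb1a1 was set for them either, so wells rich in epithelial reads could remain. Of 87 cells with Ednrb, the endothelin receptor that marks aerocytes, at 100 CPM or more, 8 had Cd74 of 2000 CPM or more (9.20%, 4.05 to 17.3). Their summed Cd74 was 871, 653 and 58.4 CPM in EC1, EC2 and EC3, against 3544, 1756 and 894 CPM in general capillary cells. Median Cd74 was 3.55, 4.04 and 0 CPM in the Ednrb cells, against 2502, 571 and 134 CPM in general capillary cells. Of the 109 cells with 2 or more arterial genes, 41 reached 2000 CPM (37.6%, 28.5 to 47.4), beside 33.5% (29.3 to 37.9) of general capillary cells. These pooled shares hide the sets. Arterial and general capillary shares were 42.1% and 55.9% in EC1, 28.6% and 30.7% in EC2, and 41.7% and 13.6% in EC3. Summed Cd74 in the arterial cells was 2944, 1221 and 1382 CPM. Summed class II genes without Cd74 were at 802, 744 and 67.1 CPM in the Ednrb cells, 3433, 2432 and 2121 CPM in the arterial cells and 4759, 2678 and 1955 CPM in the general capillary cells. Both measures were thus lower in the Ednrb cells of each set than in its general capillary cells, with no test across samples.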

How the data were processed

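All values came from the raw counts of reads by gene and cell that the authors deposited. The table has 1504 columns and 21947 genes besides the eGFP row. Reads were aligned with STAR 2.4.2a to mm10, per the submitters' processing notes, and which counter, annotation and cell filter followed is not given in the sources used here. A deposited table of scaled values was not used, and 735 columns of mural cell sets were not mapped. The columns EC1, EC2 and EC3 were taken as Cldn5(BAC)eGFP since the series design describes that reporter as labelling lung endothelium. No 2 of their 769 columns were identical, and the smallest total was 100725 reads.

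Reads were summed over the cells of a class and set and given as CPM. Folds and log2 differences used a floor of 3 reads for a class. Shares of cells used each cell thinned once to 50000 reads (seed 1). Intervals were exact at 95%: Poisson for levels, Clopper-Pearson for shares and conditional for folds. The limit given for a count of 0 is 3 counts of the total. Each class needed at least 10 cells. Cd74 and eGFP were left out of the counts of genes. No doublet caller was run.

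Members, gene lists and thresholds were chosen with earlier results of these data known. Genes named were the 10 with the largest mean fold in each direction among those called in every set, every measured class II gene, up to 4 genes of each other list (called genes first, then by mean fold, with 20 CPM on a side in every set), the 10 most like Cd74 and the genes of the choosing rule. No predicted, ribosomal protein or mitochondrial gene is named. RefSeq promoter windows matched 8 of the 9 class II genes without Cd74, H2-Ab1 being the other. Gene positions are from GENCODE vM21. Scripts, tested on simulated data, ran in Python 3.11.15 with numpy 2.4.6, pandas 2.3.3 and scipy 1.17.1. R 4.3.3 with edgeR 4.0.16 gave the scaling factors of TMM and median-ratio alternatives and no test. Of 21 alternatives, those without cells rich in alveolar type 2 or leukocyte lists were added after the data were seen.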

Additional observations from a re-analysis of the deposited data

Results flagged for a closer look

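Scgb1a1, the club cell secretoglobin, was called in opposite directions in different column sets, and the choosing rule used it. Its log2 difference, Cd74-high minus Cd74-low, was 3.28 in EC1 and -1.40 in EC2, both called, and -0.28 in EC3, not called. The difference between the sets was not tested. In EC1 12.0 CPM in the Cd74-low class came from 66 reads in 29 cells, 10.3% of which had a read after thinning. The highest single cells held 4101 CPM in the Cd74-high class of EC1 and 2588 CPM in the Cd74-low class of EC2.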

How the results depend on the processing

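Under 21 alternatives the 4 class II genes were higher in Cd74-high cells in 84 of 84 recomputed mean differences. This count is a description, since settings of fold, minimum CPM and minimum share leave a mean difference unchanged. These 4 genes had also been picked as higher in the same cells. They were called together in every set under each alternative that could be called, other than a fold of at least 3 (H2-Aa and H2-Ab1 lost), Cd74 of at least 1000 CPM (H2-Aa lost) and leaving out cells with 100 CPM of the alveolar type 2 list (H2-DMb1 lost). Efr3a and Palmd were less stable: a fold of 3, Cd74 of at least 1000 CPM, and leaving out the highest cell, the cells with Vwf of 100 CPM, those with Sftpc plus Scgb1a1 of 1000 CPM or those with the alveolar type 2 list each ended both calls. Palmd alone was also lost with levels taken as the mean of CPM over cells and with Cd74-low under 200 CPM. The same held in the middle quartiles of depth and without cells with leukocyte lists of 50 CPM. The number of genes higher in every set, 4 as reported, was 14 with a fold of 1.5, 2 with a fold of 3, 80 with no minimum share of cells, 8 with Cd74-low under 200 CPM, 9 in the middle quartiles of depth, and 7 both without Vwf cells and without cells with leukocyte lists of 50 CPM. It was 14, 20 and 18 without EC1, EC2 and EC3, where 2 sets had to match in place of 3. The number lower, 2 as reported, was 20, 0 and 128 under the first 3 of these, 1 with Cd74 of at least 1000 CPM, 10 in the middle quartiles, 4 without Vwf cells, 5 without leukocyte-list cells, 11 without alveolar type 2-list cells, 3 with median-ratio factors, with Cd74-low under 200 CPM, without the highest cell and without Sftpc plus Scgb1a1 cells, and 29, 27 and 6 without EC1, EC2 and EC3. Besides the settings that changed the rule itself, the cause was not tested. The class II mean log2 difference, 1.71, was 1.97 with Cd74 of at least 4000 CPM (7 cells in EC3, too few for calls), 1.40 with 1000 CPM, 1.98 with Cd74-low under 200 CPM, 1.79 without the highest cell, 1.81 without Vwf cells, 1.51 without alveolar type 2-list cells and 1.87 without leukocyte-list cells. Within single sets the counts ran from 78 to 2094 higher and 58 to 1750 lower in EC1, 41 to 1688 and 46 to 1915 in EC2, and 166 to 1727 and 148 to 2746 in EC3. The classes were paired by column set throughout. No paired analysis was possible because, beyond the set, the labels name no animal and the columns carry no replicate number.

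The classes of 20 Cd74-high cells in EC3 and 29 Cd74-low cells in EC1 limit those sets, and genes read in few cells are the least certain. In sparse genes a single cell can set a summed level.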
